A study of Mus musculus with 12 samples.

Results

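Potassium channel genes were taken as all genes of the deposited list of poly(A) sites (PASs) whose symbol starts with *Kcn*. They comprised 87 of 16627 listed genes and 419 of 56204 listed entries. The sites were identified with 3′READS, which sequences the 3′ ends of transcripts, in 12 libraries from hippocampal mini-slices of C57BL/6 mice labelled 3 months old. LTP slices were perfused with 50 µM forskolin and then with 50 µM forskolin, 30 mM KCl and 10 mM calcium to induce chemical LTP, while control slices from the same animals received 0.2% DMSO. The dentate gyrus had been trimmed from all slices, and tissue was taken either 1 hr or 3 hr later, with 3 libraries each for control 1 hr, LTP 1 hr, control 3 hr and LTP 3 hr. The paper excluded 1 of the control 3 hr libraries as an outlier from its PAS analysis. Any PAS listed only through that library cannot be told apart here. The 12 columns of read counts in the table carry names that match no sample label, so they were not used here. The values below therefore describe where the transcripts of *Kcn* genes, and antisense transcripts upstream of them, can end and not how often each end was used. No difference between LTP and control slices was tested, the read depth of a site was not examined, and the tissue was not checked against marker levels. The list holds more entries than the study counts in any single library after limits on read number and relative abundance, so some of its PASs may lie outside those limits.

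Potassium channels set the resting potential of neurons, repolarize the action potential and limit repetitive firing. Pore-forming subunits fall into voltage-gated channels, channels opened by intracellular calcium or sodium, inward rectifiers and tandem-pore leak channels, and auxiliary subunits change their gating and surface expression. A transcript of any of these genes is cleaved and polyadenylated at a PAS. A choice among PASs in the 3′-most exon changes the 3′UTR alone, whereas use of a PAS in an intron truncates the transcript and can remove coding sequence.

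Intronic PASs made up 178 of the 419 *Kcn* PASs (42.5%), and 156 (37.2%) were labelled exon3, the 3′-most exon. The order of these counts was not stable. With the PASs labelled exon53 added to exon3, the latter numbered 180, and without *Kcnh7*, *Kcnip4* and *Kcnn2*, the genes with the most intronic PASs, 120 of the 272 intronic and exon3 PASs were intronic. Of the intronic PASs, 174 were labelled intron_Comp and 4 intron_Skip, the names used for composite and skipped terminal exons. Upstream antisense PASs, labelled UA, numbered 39, and all 39 lay on the strand opposite to that of their gene. A further 18 PASs were labelled exon3ext and lay past the annotated gene end. The label exon53 was given to 24 PASs, of which 14 belonged to the long noncoding RNA gene *Kcnq1ot1*. The remaining 4 PASs were labelled exon5 (2 PASs), exonI (1 PAS) and exon53ext (1 PAS). No *Kcn* PAS was listed under a second gene. Among all other genes of the list, exon3 accounted for 55.8% of the entries and intron_Comp for 23.7%, against 41.5% of *Kcn* PASs for intron_Comp. These shares weigh a site with few reads as much as any other. The paper reports a much smaller intronic fraction among the PASs it identified, for *Kcn* and other genes together. The shares given here describe the deposited list and are no estimate of that fraction. Whether limits on read number and relative abundance account for the gap was not tested.

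**Figure D1:**
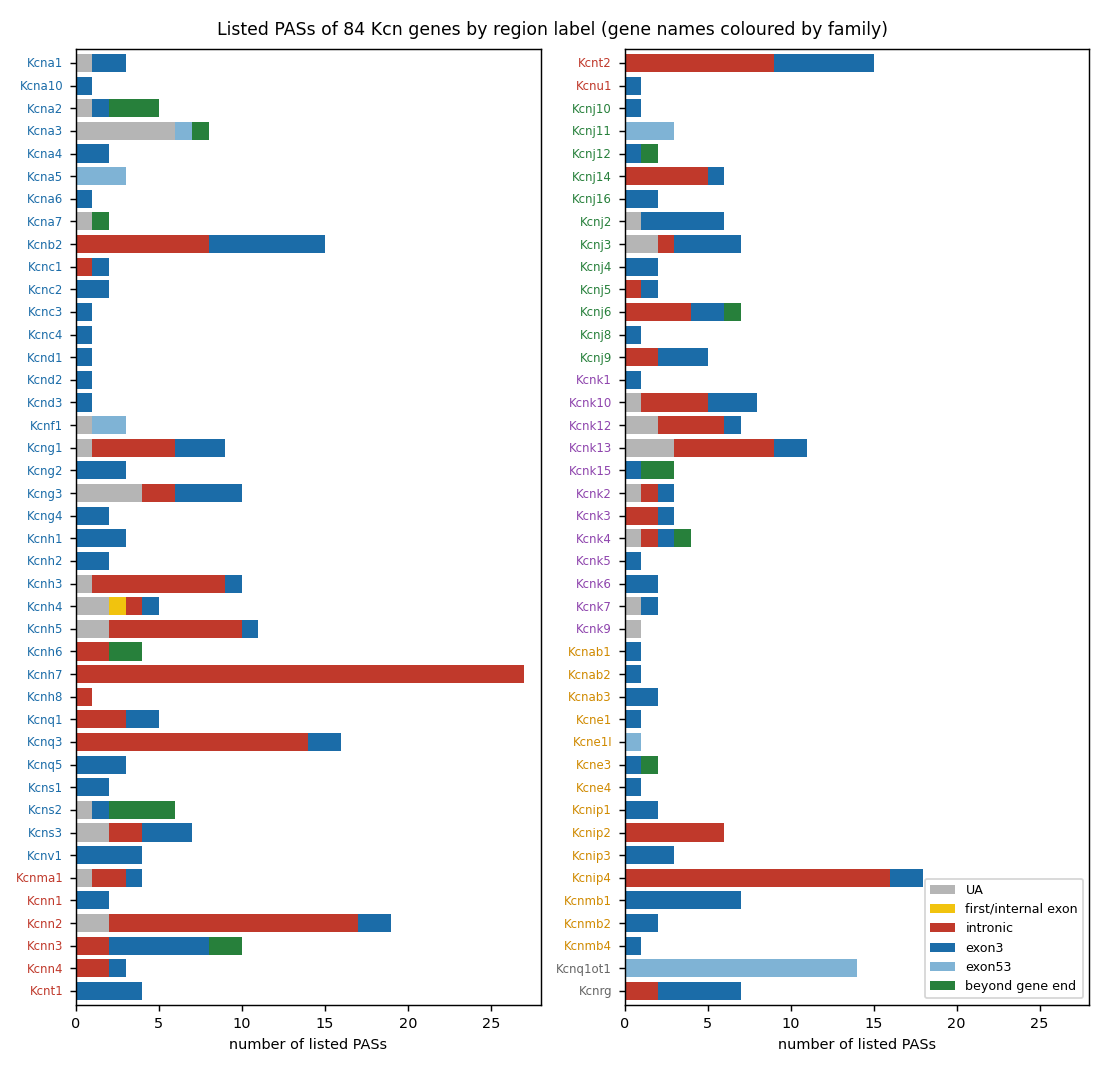
Number of listed PASs (horizontal axis) of each of 84 *Kcn* genes, split by region label, with gene names coloured by channel family. *Kcnh7* stands out with 27 PASs, all intronic, whereas the bars of *Kcnd2* and *Kcnk1* hold 1 PAS each.

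The number of PASs per gene ran from 1 to 27, with a median of 3, against a median of 2 over the 16540 other genes. A lone PAS was listed for 21 *Kcn* genes, and 66 genes (75.9%, 95% Wilson interval 65.9% to 83.6%) had 2 or more, against 67.0% of all other genes. These counts include UA PASs. Without them, the median of *Kcn* genes was 2.5, and 64 of 86 genes (74.4%) had 2 or more. The genes with the most PASs were *Kcnh7* with 27, *Kcnn2* with 19 and *Kcnip4* with 18. *Kcnh7* encodes an ether-a-go-go-related voltage-gated channel, *Kcnn2* a small-conductance calcium-activated (SK) channel that contributes to the afterhyperpolarization, and *Kcnip4* a cytoplasmic calcium-binding partner of Kv4 channels. Only exon3 PASs were listed for 37 genes. Members of the same channel family differed widely. Genes for Kv4 channels, which carry the A-type current of dendrites, had 1 PAS each, while the Kv2 gene *Kcnb2* had 15.

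Voltage-gated channels formed the largest family, with 39 genes and 202 PASs. Their median was 3 PASs per gene, and 15 of the 39 genes had an intronic PAS. None of the 8 Kv1 genes (*Kcna1* to *Kcna7* and *Kcna10*), many of which code for the channel in a single exon, had an intronic PAS. Instead, 4 of the 8 had a UA PAS. *Kcna1*, on the minus strand of chromosome 6, had exon3 PASs at 126588563 and 126586489, 2074 nt apart, in the mm9 coordinates that the submitters' processing notes name. *Kcna4* had 2 exon3 PASs 964 nt apart. *Kcna2* had 1 exon3 PAS, and its 3 exon3ext PASs followed 2233 nt, 9267 nt and 9333 nt downstream of it. *Kcnd2*, the main Kv4 gene of pyramidal neurons, was listed with 1 exon3 PAS at chr6:21679805 on the plus strand, although the annotated gene is 514.3 kb long. *Kcnd3*, 221.7 kb long, also had 1 exon3 PAS.

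The Kv7 genes *Kcnq3* and *Kcnq5*, whose subunits carry the M-current that restrains repetitive firing, showed different layouts. *Kcnq5* had 3 exon3 PASs that spanned 3401 nt and no intronic PAS. *Kcnq3* had 14 intronic PASs, the farthest of them 286677 nt upstream of the first of its 2 exon3 PASs, which were 31 nt apart. The 3′UTR set of *Kcnq3* thus varied by 31 nt and that of *Kcnq5* by 3401 nt. Over all 8 ether-a-go-go genes (*Kcnh1* to *Kcnh8*), 47 PASs were intronic and 8 were exon3. *Kcnh7* had 27 of these intronic PASs and no exon3 PAS. *Kcnh1* had 3 exon3 PASs spanning 825 nt and no intronic PAS. *Kcnb2*, whose channel carries a delayed rectifier current, had 8 intronic PASs and 7 exon3 PASs. *Kcnc1*, a Kv3 gene of fast-spiking interneurons, had 1 intronic PAS located 34780 nt upstream of its only exon3 PAS.

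The 8 genes grouped by symbol as calcium- or sodium-activated channels held 58 PASs, with a median of 4, and 5 of the 8 had an intronic PAS. The group includes *Kcnu1*, a BK-like gene with 1 exon3 PAS, whose activation by these ions was not checked. *Kcnma1*, the pore-forming subunit of the large-conductance BK channel, had 1 exon3 PAS at chr14:24118954 on the minus strand. Its intron_Skip PAS lay 6885 nt upstream of that PAS and its intron_Comp PAS 348710 nt upstream. Among the SK genes, *Kcnn1* had 2 exon3 PASs 748 nt apart, *Kcnn2* had 15 intronic PASs and 2 exon3 PASs 39 nt apart, and *Kcnn3* had 6 exon3 PASs spanning 5086 nt. The sodium-activated channel genes also differed. *Kcnt1* had 4 exon3 PASs spanning 1948 nt, and *Kcnt2* had 6 spanning 2096 nt with 9 intronic PASs upstream.

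The 12 inward rectifier genes held 44 PASs, and 5 of the 12 had an intronic PAS. *Kcnj3*, *Kcnj6* and *Kcnj9* encode the G protein-gated (GIRK) subunits of hippocampal neurons. *Kcnj3* had 4 exon3 PASs spanning 684 nt and 1 intronic PAS 97751 nt upstream. *Kcnj9* had 3 exon3 PASs spanning 1850 nt and 2 intronic PASs. *Kcnj6* had the widest exon3 span of all *Kcn* genes, 9219 nt. Its first exon3 PAS, at chr16:95054158 on the minus strand, was followed by 4 intron_Comp PASs within 719 nt and only then by the distal exon3 PAS at 95044939. These 4 were the only intronic *Kcn* PASs downstream of an exon3 PAS of the same gene. *Kcnj10*, the Kir4.1 channel of astrocytes, had 1 exon3 PAS.

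The 12 tandem-pore genes held 46 PASs. *Kcnk1* had 1 exon3 PAS. *Kcnk2*, which encodes the mechanosensitive channel TREK-1, had 1 exon3 PAS and 1 intronic PAS 135337 nt upstream. For *Kcnk9*, the acid-sensitive channel TASK-3, the sole listed PAS was UA, so no sense 3′ end of this gene can be described. UA PASs were listed for 7 of the 12 genes of this family. Of the 11 tandem-pore genes with an exon3 PAS, 3 had 2 or more.

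Of the 14 auxiliary subunit genes, 2 had an intronic PAS and none had a UA PAS. Both with intronic PASs encode KChIPs, the Kv4 partners. *Kcnip4* had 16 intronic PASs, and *Kcnip2* had 6 and no exon3 PAS. *Kcnip1* had 2 exon3 PASs 441 nt apart, and *Kcnip3* had 3 spanning 1731 nt. Of the Kv1 beta subunits, *Kcnab1* and *Kcnab2* had 1 exon3 PAS each and *Kcnab3* had 2 exon3 PASs 38 nt apart. *Kcnmb1*, a beta subunit of the BK channel, had 7 exon3 PASs, the most of any *Kcn* gene together with *Kcnb2*. Outside these families were *Kcnq1ot1* and *Kcnrg*, named as a regulator of potassium channels, which had 2 intronic PASs and 5 exon3 PASs spanning 425 nt.

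Across families, exon3 PASs were listed for 74 *Kcn* genes, and 38 of these (51.4%, 95% Wilson interval 40.2% to 62.4%) had 2 or more. The share over all other genes was 49.5%, within that interval. The outermost exon3 PASs of the 38 genes were a median of 838.5 nt apart, against 816 nt for the other genes. The 25th and 75th percentiles were 224.5 nt and 2042.5 nt. The span was over 2000 nt in 10 genes and under 100 nt in 8 genes. The widest spans were those of *Kcnj6* (9219 nt), *Kcnn3* (5086 nt) and *Kcnb2* (4037 nt). With 4 intronic PASs between its exon3 PASs, the span of *Kcnj6* cannot be read as the length of a single 3′UTR, and without this gene the median was 825 nt. Neighbouring exon3 PASs of a gene, 82 pairs in all, were a median of 262 nt apart, and the closest pair was 29 nt apart. The family medians were 852 nt for 17 voltage-gated genes, 1948 nt for 5 calcium- or sodium-activated genes, 1516 nt for 6 inward rectifier genes, 214 nt for 3 tandem-pore genes and 239.5 nt for 6 auxiliary genes. The families overlapped broadly, and the difference between them was not tested.

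**Figure D2:**
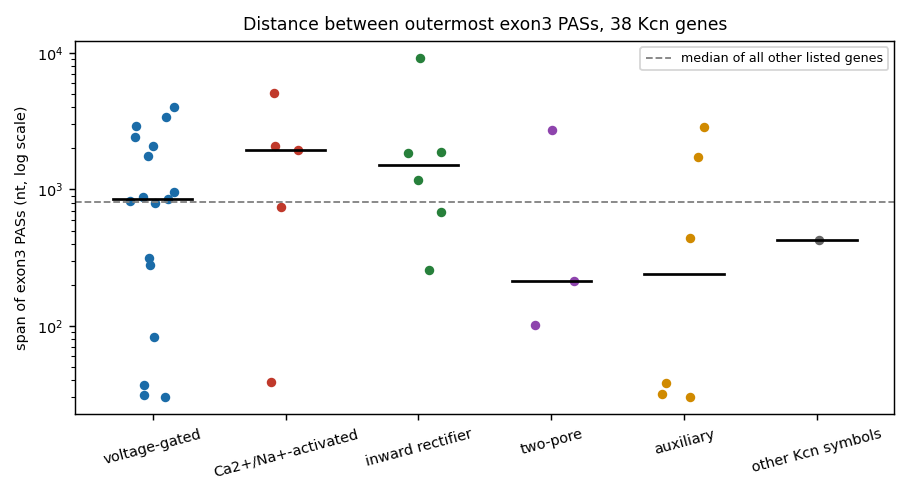
Distance in nt (log scale) between the outermost exon3 PASs of the 38 *Kcn* genes with 2 or more, by family. Each point is a gene, black lines are family medians and the dashed line is the median of all other listed genes (816 nt). Points of all families except the 1 gene among the other symbols lie on both sides of the dashed line.

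An intronic PAS was listed for 34 of the 87 genes (39.1%, 95% Wilson interval 29.5% to 49.6%), against 33.5% of all other genes, a share within that interval. Counted by site, intronic PASs made up 53.3% of the 334 intronic and exon3 PASs of *Kcn* genes, against 32.5% for all other genes. Both shares exceed the intronic fraction that the paper gives for its PASs. The site share of *Kcn* genes rested on few genes. *Kcnh7*, *Kcnip4*, *Kcnn2* and *Kcnq3* together held 72 of the 178 intronic PASs, and the 10 genes with the most held 120. Without *Kcnh7*, *Kcnip4* and *Kcnn2*, the share was 44.1%. The gene families for other voltage-gated pores had similar site shares, 55.9% in 10 *Cacna1* calcium channel genes and 52.6% in 8 sodium channel alpha subunit genes (*Scn*). Counted by gene, they were less alike. An intronic PAS was listed for 40% of *Cacna1* and 87.5% of *Scn* genes, and a UA PAS for 10% and 0%. Among genes with an exon3 PAS, 44.4% of *Cacna1* and 71.4% of *Scn* genes had 2 or more. These comparisons were not tested, since neighbouring PASs of a gene are not independent.

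Both an intronic and an exon3 PAS were listed for 29 *Kcn* genes. Of the 140 intronic PASs of these genes, 136 lay upstream of the first exon3 PAS, at a median over all 140 of 78039 nt. The distance was up to 5 kb for 19 of the PASs and over 100 kb for 50. The gene with the most distant intronic PAS was *Kcnip4*, where it was at chr5:49649531, 868760 nt upstream of the first exon3 PAS at chr5:48780771 on the minus strand. *Kcnb2* followed with 375593 nt and *Kcnma1* with 348710 nt. In 5 genes, *Kcnh6*, *Kcnh7*, *Kcnh8* and *Kcnip2* among them, intronic PASs were listed without an exon3 PAS, although *Kcnh6* had 2 exon3ext PASs.

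**Figure D3:**
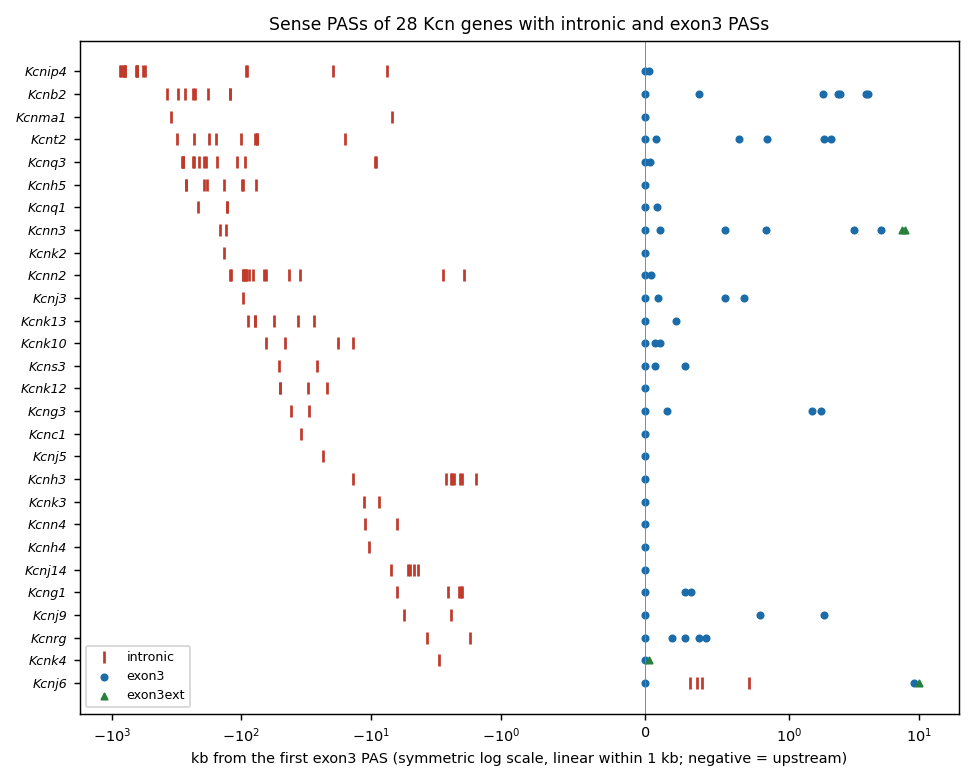
Position in kb of each sense PAS relative to the first exon3 PAS (symmetric log axis, linear within 1 kb, upstream to the left) in 28 of the 29 *Kcn* genes with both intronic and exon3 PASs. Red bars are intronic, blue points exon3 and green triangles exon3ext PASs, and *Kcnj6* is the gene with its 4 intronic PASs to the right of 0.

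Genes with an intronic PAS were longer. Gene length was taken from the GENCODE annotation of GRCm38 by symbol, which matched all 87 genes, and no position was carried between builds. The median length was 77.5 kb for the 34 *Kcn* genes with an intronic PAS and 21.2 kb for the 53 without. Spearman's rho between gene length and the number of intronic PASs was 0.41 over the 87 *Kcn* genes and 0.36 over 16349 other genes. It is a description across genes, which share their annotation and libraries and are not independent replicates. Among *Kcn* genes over 100 kb, 15 of 23 (65.2%, 95% Wilson interval 44.9% to 81.2%) had an intronic PAS, against 57.4% of the other genes of that length. Between 20 and 100 kb, the shares were 38.7% of 31 *Kcn* genes and 41.3% of the others. Up to 20 kb they were 21.2% of 33 *Kcn* genes and 18.7%. In each length class the share of other genes lay within the interval of the *Kcn* share. The number of intronic PASs per 100 kb was higher for *Kcn* genes in each class. It was 1.35 against 0.89 over 100 kb, 2.71 against 2.33 between 20 and 100 kb, and 7.17 against 3.64 up to 20 kb. These differences were not tested. Single genes departed from the relation with length. *Kcnd2*, *Kcnd3*, *Kcnq5* and *Kcnab1*, all over 100 kb, had no intronic PAS, while *Kcnh3*, under 20 kb long, had 8.

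**Figure D4:**
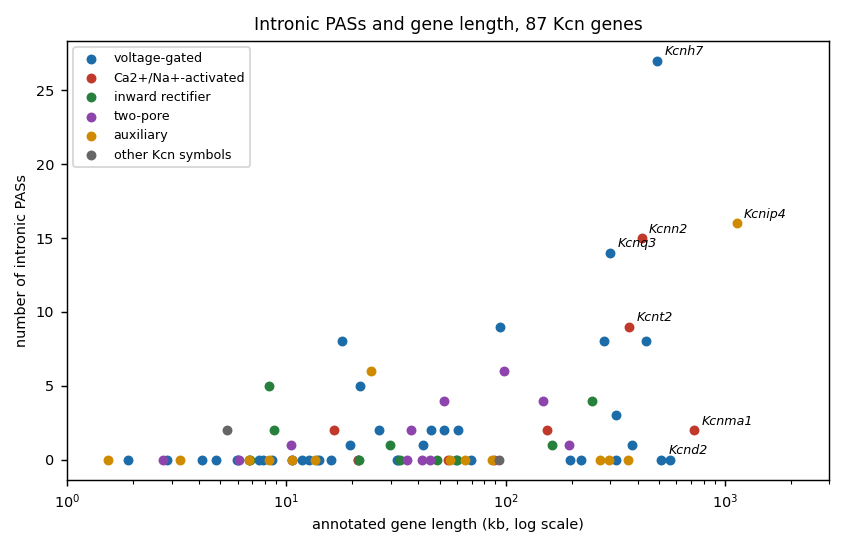
Number of intronic PASs against annotated gene length in kb (log scale) for the 87 *Kcn* genes, coloured by family. *Kcnh7* with 27 intronic PASs is highest, and long genes such as *Kcnd2* (514.3 kb) lie at 0.

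Upstream antisense PASs, as the label UA was read, mark transcripts that start near a promoter and run away from the gene. They were listed for 23 *Kcn* genes (26.4%, 95% Wilson interval 18.3% to 36.6%), against 13.8% of all other genes. The share of the other genes lay below the interval, which covers counting error only, and the difference was not tested. UA PASs occurred in 12 of 39 voltage-gated genes, 7 of 12 tandem-pore genes, 2 of 12 inward rectifier genes, 2 of 8 calcium- or sodium-activated genes and none of 14 auxiliary genes. *Kcna3* had the most, with 6, followed by *Kcng3* with 4 and *Kcnk13* with 3. The 6 UA PASs of *Kcna3* lay between chr3:106835823 and chr3:106837888 on the minus strand, the nearest 3058 nt before its first sense PAS. An intronic PAS was also listed for 14 of the 23 genes.

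The neighbouring Kv1 genes of chromosome 3 differ in this respect, and their promoters are shown for that reason. In the order of the chromosome, *Kcna3* had 6 UA PASs, *Kcna2* had 1 and *Kcna10* had none, and all 3 genes are on the plus strand. The gap was 66538 nt between the sense PASs of *Kcna3* and *Kcna2* and 80649 nt between those of *Kcna2* and *Kcna10*. The sequences are from RefSeq (GRCm38.p6), from 250 bases before to 50 bases after the annotated start, plus strand, with CpG dinucleotides in capitals. Their positions are chr3:107035912-107036211 for *Kcna3*, chr3:107101317-107101616 for *Kcna2* and chr3:107182893-107183192 for *Kcna10*, on a different build from the PASs.

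Kcna3: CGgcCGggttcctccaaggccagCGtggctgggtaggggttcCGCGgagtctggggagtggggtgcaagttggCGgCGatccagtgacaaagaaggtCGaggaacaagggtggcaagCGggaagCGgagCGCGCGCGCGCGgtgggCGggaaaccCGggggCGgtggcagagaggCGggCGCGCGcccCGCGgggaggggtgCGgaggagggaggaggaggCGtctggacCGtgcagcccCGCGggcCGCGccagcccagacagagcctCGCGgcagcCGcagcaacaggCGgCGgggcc

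Kcna2: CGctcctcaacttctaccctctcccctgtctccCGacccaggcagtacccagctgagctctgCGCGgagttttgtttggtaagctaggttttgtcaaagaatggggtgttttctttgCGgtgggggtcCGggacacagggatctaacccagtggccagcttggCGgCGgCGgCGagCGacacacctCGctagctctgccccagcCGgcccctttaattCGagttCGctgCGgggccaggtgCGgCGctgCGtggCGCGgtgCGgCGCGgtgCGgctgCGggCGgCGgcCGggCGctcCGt

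Kcna10: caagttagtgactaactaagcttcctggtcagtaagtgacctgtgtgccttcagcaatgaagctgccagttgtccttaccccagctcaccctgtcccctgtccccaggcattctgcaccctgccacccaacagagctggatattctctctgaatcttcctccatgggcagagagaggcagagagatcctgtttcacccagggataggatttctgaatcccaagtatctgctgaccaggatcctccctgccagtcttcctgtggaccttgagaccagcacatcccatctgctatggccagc

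The window of *Kcna3* held 37 CpGs and that of *Kcna2* 31, whereas that of *Kcna10* held 0. Over all *Kcn* genes the groups with and without a UA PAS overlapped. Promoter windows were found for 63 of the listed *Kcn* genes, and the window with the most CpGs was used where a gene had several. The median was 18 CpGs in 17 genes with a UA PAS, with a range of 3 to 49, and 14 CpGs in 46 genes without, with a range of 0 to 48. *Kcnf1* had a UA PAS with 3 CpGs in its window, and *Kcnmb4* had none with 48 CpGs. A UA PAS was listed for 8 of 26 genes with 20 or more CpGs (30.8%), 5 of 16 genes with 10 to 19 (31.2%) and 4 of 21 genes with 9 or fewer (19.0%, 95% Wilson interval 7.67% to 40.0%). The interval of the lowest class includes the shares of both others, and the difference was not tested. For all other genes with a window, the shares were 14.5%, 12.1% and 13.2%.

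PASs past the annotated gene end, labelled exon3ext or exon53ext, were listed for 11 *Kcn* genes (12.6%, against 13.0% of all other genes). *Kcns2*, a silent subunit that combines with Kv2 channels, had 4, *Kcna2* had 3, and *Kcnh6*, *Kcnk15* and *Kcnn3* had 2 each. In *Kcnh6* and *Kcna7*, no exon3 PAS was listed, so the only 3′-most ends were past the annotated end.

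*Kcnq1* and *Kcnq1ot1* overlap on chromosome 7. *Kcnq1* encodes a Kv7 channel and is transcribed from the plus strand, while *Kcnq1ot1* is the paternally expressed antisense RNA of its imprinted domain. *Kcnq1ot1* had 14 PASs, all labelled exon53, from 150480886 to 150403073 on the minus strand, a distance of 77813 nt. All 14 lay between the first and the second intronic PAS of *Kcnq1*, at 150396119 and 150483534. The lowest was 6954 nt from the first of these, and the highest 2648 nt from the second. Strand separates the PASs of both genes in the list. The only other gene with sense PASs between the outermost sense PASs of a *Kcn* gene was *Pacrgl*, with 4 PASs on the opposite strand within *Kcnip4*.

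The list of 30 hippocampal channel genes named for description was found in full. A lone PAS was listed for 8 of the 30, 16 had 2 or more exon3 PASs, 13 had an intronic PAS and 7 had a UA PAS. In the same order, the counts were 21, 38, 34 and 23 of all 87 *Kcn* genes. Of the 16540 other genes, they were 5454, 7428, 5538 and 2279. All these totals include genes without an exon3 PAS. The differences were not tested.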

How the data were processed

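Libraries for 3′READS were made from 1 hr and 3 hr control and LTP slices, 3 per group. Per the labels, the authors mapped reads with Bowtie2 to mm9; per the methods, reads with unaligned Ts gave PASs, and nearby PASs were clustered. The study's library statistics name limits on read number and relative abundance; whether the list was limited before deposit is not given in the sources used here. The deposited table holds counts per PAS in 12 columns, whose names match no sample label and which were not used; a match by column order or by totals was not made. The planned grouping therefore entered no comparison.

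Genes with the prefix *Kcn* were described with Python 3.11.15, pandas 2.3.3, numpy 2.4.6, scipy 1.17.1 and matplotlib 3.10.9. Families were set by symbol. Spans and distances are between PASs on the gene's strand. The counting step was tested on a made-up list with known answers. Of the 156 exon3 PASs, 24 lay within 5000 nt of the same gene in GRCm38, so no position was compared with that build. The genes and lists were chosen with earlier results of these data known. Genes were named from a list of 30 hippocampal channel genes, by most PASs, widest exon3 span and most distant intronic PAS, and *Kcnq1* with *Kcnq1ot1*; any other gene was named after its PASs were seen. Wilson intervals cover counting error only. Labels were read from their names. Alternatives changed the region labels counted, the genes counted and the merging of close PASs. Sequence around the PASs and protein sequences were not analysed here, and the sites of 3 genes are not reported singly here.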

Additional observations from a re-analysis of the deposited data

How the results depend on the processing

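The values were recomputed under 20 alternatives, of which 17 left them within the 95% Wilson interval of a share or within 1.5 times a median. The share of intronic PASs was 53.3% of the intronic and exon3 PASs, 42.5% when all region labels formed the total, which only adds PASs that are not intronic, and 44.1% without the 3 genes with the most intronic PASs. It was 49.7% with exon53 added to the total and 47.2% with exon3ext, exon53 and exon53ext added. Without *Kcnj6*, 50.7% of the genes had 2 or more exon3 PASs. The last 4 of these settings, and the span without *Kcnj6*, were chosen after seeing the data. Merging PASs within 50 nt raised the median exon3 span from 838.5 nt to 1182 nt, since genes with only a close pair drop out. With exon3ext, exon53 and exon53ext added, 61.0% of the genes had 2 or more 3′UTR PASs, against 51.4%. No *Kcn* PAS is listed under several genes, so leaving such PASs out could change nothing. The alternatives that did so count among the 17, although their outcome was fixed in advance. For the share of genes with a UA PAS, no other alternative was run, so its dependence on the processing was not tested. No paired analysis was possible because no column of counts could be tied by name to an animal, and no library could be left out in turn for the same reason. As the read counts were not used, a PAS seen in a few reads was not told apart from a major one.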
